A study of Arabidopsis thaliana with 18 samples.

Results

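The comparison described here sets Arabidopsis thaliana plants sampled 28 h after a salicylic acid (SA) treatment against plants sampled 4 h after the same treatment. It uses 6 of the 18 arrays of the series, chosen by their source labels, with 3 biological replicates at 28 h and 3 at 4 h. All plants were of the natural accession Kin-0, and those of this comparison received SA at 0.30 mM with the surfactant silwet at 0.02%, which spreads a solution over the plant surface. Plants given 0.02% silwet alone at 28 h (3 arrays) and at 4 h (3 arrays) served as the background for the change with time. The other 6 arrays, SA and silwet at 52 h, entered the choice of the probe sets tested and the model fitted to all 18 arrays, with its estimate of spread. Beyond that, some values at 52 h are given for a few genes. The labels name no tissue, plant age or time of day, and whether plants were pooled is not stated.

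SA is a hormone of plant defence. When its level rises, the co-activator NPR1 works with TGA transcription factors to switch on defence genes, among them WRKY factors. N-hydroxypipecolic acid is a second defence signal, which spreads resistance to untreated leaves, and glucosyltransferases such as UGT76B1 inactivate both compounds by adding glucose. Defence proteins are made on the endoplasmic reticulum, so chaperones of that compartment are known to rise early after SA, while growth is often turned down.

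Expression was measured on ATH1 arrays as a MAS5 signal, a linear intensity for each probe set, and all changes below are differences of log2 signal, 28 h minus 4 h. The median signal of an array was between 26.7 and 35.1 on the 6 SA arrays, and the small number of arrays limits the precision. A value counted as dim where it was below the 40th percentile of its array, a level of 16.03 to 20.7. SA replicate 2 at 4 h had the highest ratio of 3' over 5' control signals of all 18 arrays (2.65 on the log2 scale, against 2.26 for the next), and its part in the results was not tested beyond the fits without it. RCA, the Rubisco activase of leaf mesophyll, had 1458, 3542 and 3188 at 28 h, compared with 1433, 3408 and 2918 at 4 h. PYK10, a beta-glucosidase of roots, had 108, 110.4 and 127 at 28 h, compared with 167, 58.5 and 95.4 at 4 h. FMA, a guard cell factor, had 38.3, 45.1 and 44.4 at 28 h, compared with 42.6, 33.9 and 37.1 at 4 h. None of these 3 cell type markers passed the test with limma, and none had an unadjusted p under 0.05. In such whole samples fewer cells of a type and less RNA per cell cannot be told apart.

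The question of this comparison is what changes between an early and a later time after SA; time since treatment, plant age and time of sampling move together in it. From 4 to 28 h, 3756 of 15212 probe sets changed in SA plants, or 24.7% at limma's adjusted p under 0.05, with 2008 higher at 28 h (13.2%) and 1748 lower (11.5%). The fit used the replicate number as a block. Without it the count was 1769 (11.6%), with 820 higher (5.39%) and 949 lower (6.24%), and all 1769 were among the 3756. A change of at least 2-fold was called for 1839 (12.1%), 867 higher (5.70%) and 972 lower (6.39%). Taking dim values as they stand, at least 4-fold changes were called for 97 higher and 192 lower probe sets, at least 8-fold for 16 and 38, and at least 16-fold for 4 and 11. In 3725 of the 3756 called probe sets (99.2%) all 3 same-numbered pairs of arrays changed in 1 direction, against 55.1% of all those tested. The arrays of 28 h lay wholly outside the range of those of 4 h in 2822 called probe sets (75.1%), against 26.1% of all tested. Both shares follow in part from the choice of the probe sets, since the calls were made on these same arrays.

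UGT76B1, HSP23.5 and AT1G74870 were among the 14 named genes chosen for the largest fitted decrease, several of which are known only by locus number, with no role in the tables used here. UGT76B1 had a signal of 48.1, 85.1 and 65.9 at 28 h, against 1598, 2378 and 2116 at 4 h. All 3 arrays at 28 h lay far below all 3 at 4 h, a change of -4.95 (SE 0.58, adjusted p = 2.75e-05), 31.0-fold lower. AT1G74870 had 1.202, 1.12 and 0.610 at 28 h, compared with 132, 209.8 and 165 at 4 h. It was dim on every array at 28 h, so its signal was at least 9.19-fold lower, a bound taken against the dim level of the 28 h arrays. HSP23.5, a small heat shock protein of mitochondria, had 17.5, 16.5 and 16.9 at 28 h, with 1 of 3 arrays above the dim level, against 436, 422 and 266 at 4 h (-4.43, SE 0.57). AT5G03350 had 141, 110.2 and 322.5 at 28 h, compared with 2167, 3102 and 2307 at 4 h (-3.87, SE 0.38, adjusted p = 7.02e-06).

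PUB22, a U-box ubiquitin ligase that restrains immune signalling, had 4.47, 0.447 and 4.97 at 28 h, compared with 26.6, 37.1 and 49.6 at 4 h. It was dim on all arrays at 28 h and at least 2.03-fold lower. CXE20, a carboxylesterase, had 3.98, 9.25 and 5.33 at 28 h, compared with 50.3, 76.2 and 65.2 at 4 h, at least 3.49-fold lower. UGT73B4, a glucosyltransferase of stress responses, had 4.47, 1.53 and 4.25 at 28 h, compared with 17.002, 35.1 and 44.7 at 4 h. Its bound was 1.65-fold, its adjusted p of 0.0402 became 0.058 without the block, and its call was lost with 5 of the 6 SA arrays left out in turn. AT1G51850 was at least 3.53-fold lower and AT3G54520, dim on all 3 arrays at 28 h and close to the dim level at 4 h, at least 1.26-fold lower. The call on AT3G54520 was also lost in 5 of these 6 fits.

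The other genes of this set were AT2G20720 (-4.45, SE 0.71), AT1G49000 (-3.70, SE 0.69), AT4G22530 (-3.54, SE 0.41), AT2G23270 (-3.51, SE 0.86) and AT1G08050 (-3.46, SE 0.50). At 28 h AT2G20720, AT1G49000 and AT2G23270 were above the dim level on only 1 of 3 arrays and AT1G08050 on 2. The fitted sizes of these 4 genes therefore rest in part on dim values. AT4G22530 stayed above the dim level on every array, with 30.1, 37.0 and 47.7 at 28 h, compared with 311, 531 and 510.1 at 4 h. AT1G08050 had an adjusted p of 0.000146, and 0.09 without the block, and was uneven over replicates, with 2.81, 31.2 and 33.1 at 28 h, compared with 45.1, 221 and 385 at 4 h. The 14 genes are those with the largest fitted decrease by a rule that also asks for a single gene name and no overlap of arrays. In 6 of the 14 named genes the 28 h signal was dim on all arrays, and 12 of the 14 passed without the block.

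**Figure D1:**
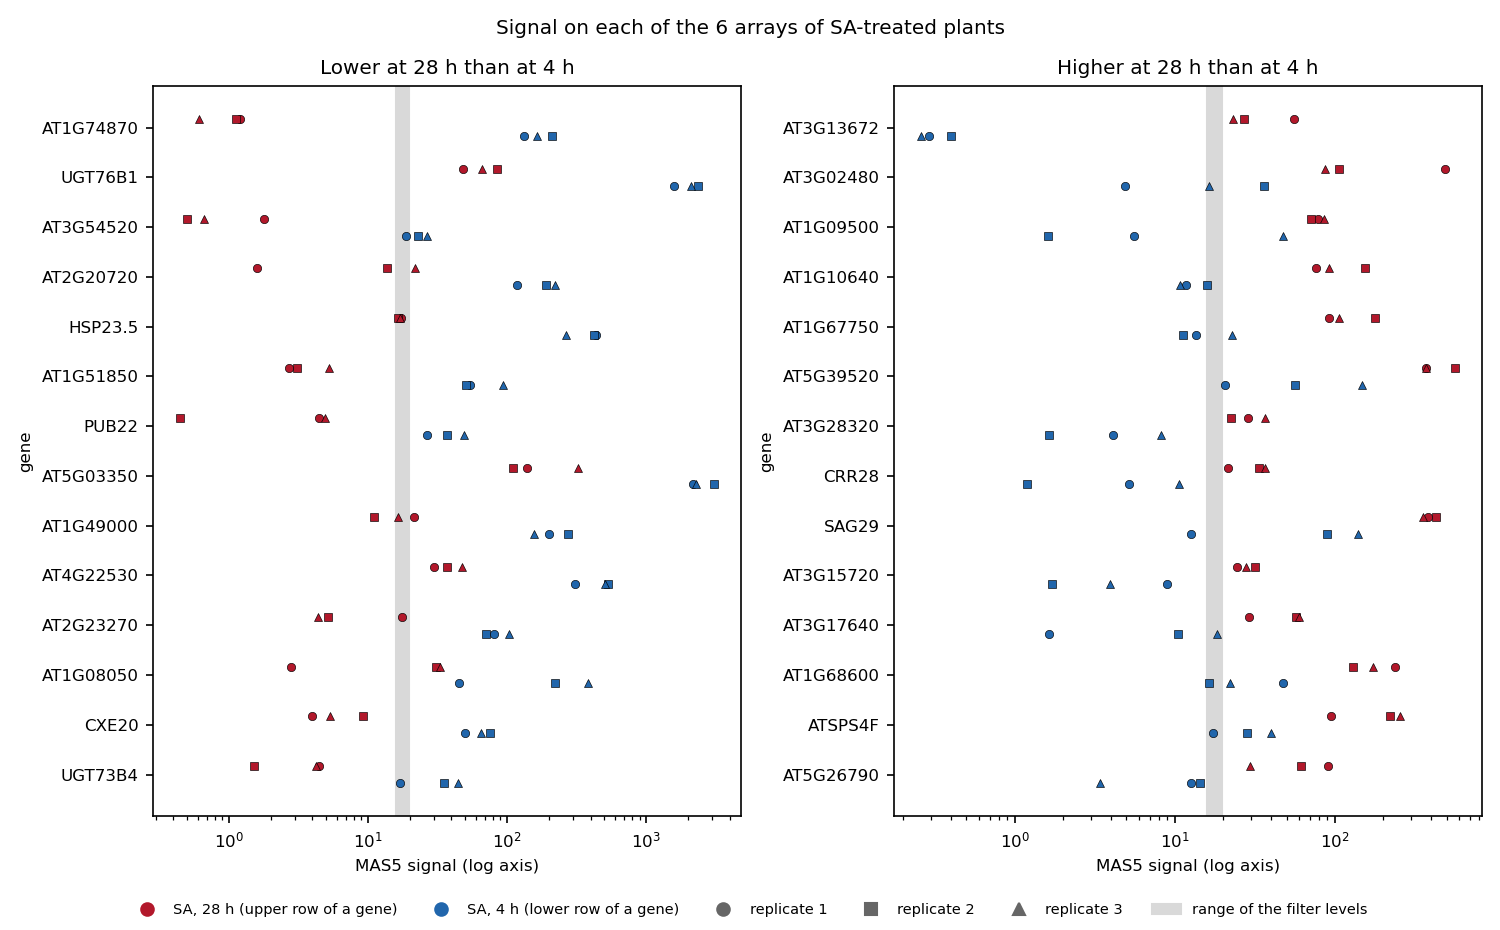
MAS5 signal on a log axis for the 14 genes with the largest decrease (left) and the 14 with the largest increase (right) on the 6 SA arrays, 28 h in red above 4 h in blue, with a symbol for each replicate number and the range of the dim level over these arrays in grey. The 28 h and 4 h symbols do not overlap for any gene, which the choice of the genes requires, and 6 genes on each side are dim on all 3 arrays of the lower time.

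The gene lists here and below were chosen with earlier results of these data known. Their counts beside the shares of all probe sets are a description and not a test. Both members of the N-hydroxypipecolate pathway that could be tested fell, with and without the block, where 11.5% of all probe sets fell with it and 6.24% without. SARD4, a reductase of pipecolic acid synthesis, had 126, 106 and 114 at 28 h, compared with 523, 449 and 382 at 4 h (-1.96, SE 0.23, adjusted p = 2.91e-05). The 2 groups of arrays were separated by a wide gap. UGT76B1 is the other member. GRX480, a glutaredoxin that binds TGA factors, had 133, 81.7 and 134 at 28 h, compared with 856, 568 and 618 at 4 h (GRXC9 in the list, -2.56, SE 0.28, adjusted p = 1.85e-05). WRKY53, a transcription factor of defence and leaf senescence, had 127, 72.3 and 66.4 at 28 h, compared with 753, 847 and 846 at 4 h (-3.26, SE 0.45, adjusted p = 0.000121). WRKY6, a related factor, had 65.7, 77.3 and 109 at 28 h, compared with 74.7, 163 and 217 at 4 h, and its groups overlapped (adjusted p = 0.124).

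F6'H1, the oxygenase that starts the synthesis of the coumarin scopoletin, had 124, 107 and 113 at 28 h, compared with 393, 851 and 564 at 4 h (-2.32, SE 0.40, adjusted p = 0.000618). S8H, which hydroxylates scopoletin, stayed near the dim level at both times and did not pass (adjusted p = 0.937). SAG101, a partner of the immune regulator EDS1, had 33.6, 27.3 and 40.6 at 28 h, compared with 58.5, 55.1 and 48.4 at 4 h without overlap (-0.69, adjusted p = 0.0561). Of the 2 tested enzymes that modify SA, 1 passed with the block and 0 without, where 24.7% and 11.6% of all probe sets passed. GH3.5, which joins amino acids to SA and auxin, changed by -0.85 (adjusted p = 0.0257, and 0.12 without the block). BSMT1, which makes volatile methyl salicylate, had 98.4, 53.5 and 154 at 28 h, compared with 8.15, 11.0 and 65.0 at 4 h and overlapped between times (2.37, SE 0.86, adjusted p = 0.0535). No probe set of the SA synthesis list or of the SA effector list, which holds PR1, PR2 and PR5, carries a single name here.

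All 3 tested genes of protein folding in the endoplasmic reticulum fell, and 2 of them without the block, against 11.5% and 6.24% of all probe sets. ERDJ3B, a co-chaperone of the lumen, had 371, 361 and 491 at 28 h, compared with 1425, 1474 and 1793 at 4 h (-1.95, SE 0.15, adjusted p = 2.32e-06). BZIP60, a transcription factor of the unfolded protein response, had 358, 208 and 292 at 28 h, compared with 974, 879 and 994 at 4 h (-1.76, SE 0.26). CRT1B, a calreticulin, had 259, 659 and 727 at 28 h, compared with 439, 1436 and 1625 at 4 h. Each CRT1B pair fell but the groups overlapped (-1.01, adjusted p = 0.0301), and without the block its adjusted p was 0.31.

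Of 5 genes of mitochondrial stress, 4 fell, and 4 without the block, against 11.5% and 6.24% of all probe sets. UPOX, a mitochondrial protein induced by oxidative stress, had 34.7, 32.3 and 28.5 at 28 h, compared with 288, 232 and 184 at 4 h (-2.87, SE 0.31). NDB2, an alternative NAD(P)H dehydrogenase of the inner membrane, had 181, 196 and 187 at 28 h, compared with 519, 568 and 740.5 at 4 h (-1.68, SE 0.18). AT2G41730 had 285, 265 and 223 at 28 h, compared with 1683, 2387 and 1477 at 4 h (-2.82, SE 0.26), on a probe set that may also bind other transcripts. HSP23.5 is the fourth. MSRB9, which repairs oxidised methionine, had 201, 63.7 and 124 at 28 h, compared with 167, 109 and 313 at 4 h and did not pass (-0.62, adjusted p = 0.223). The spread of the 4 h and the 28 h arrays was small for UPOX and NDB2 beside the gap between them.

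Among detoxification enzymes, 3 of 4 fell and 2 of them without the block, against 11.5% and 6.24% of all probe sets. GSTU25, a tau glutathione transferase, had 17.2, 15.005 and 13.9 at 28 h, compared with 74.3, 89.1 and 63.6 at 4 h (-2.29, SE 0.35). At 28 h it was dim on replicates 2 and 3, so its fitted size rests in part on dim values. GSTU22, of the same class, was dim on all 28 h arrays and at least 2.24-fold lower, and UGT73B4 is described above. UGT73B5 had a change of -0.64 that did not pass (adjusted p = 0.166). In phenylpropanoid metabolism 2 of 3 fell, and the same number without the block. CCR2, a cinnamoyl-CoA reductase of lignin and defence, had 5.34, 4.85 and 11.7 at 28 h, compared with 36.2, 56.2 and 85.8 at 4 h, at least 3.097-fold lower. CYP84A4, a P450 of pyrone synthesis, had 11.0, 5.27 and 4.71 at 28 h, compared with 52.2, 68.2 and 47.3 at 4 h, at least 3.06-fold lower. DFR, of anthocyanin synthesis, did not pass (-0.17, adjusted p = 0.768).

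Of the GH3 family, whose enzymes join amino acids to auxin and related acids, 2 of 3 tested genes fell and neither without the block, against the same 11.5% and 6.24%. GH3.3 had 37.4, 102 and 188 at 28 h, compared with 155, 782 and 817 at 4 h. Its groups overlapped, replicate 1 being the lowest array at each time (-2.37, SE 0.35, adjusted p = 0.00018, and 0.074 without the block). GH3.5 is given above, and GH3.17 had a change of 0.77 (adjusted p = 0.122). ZAT10, a zinc finger of rapid stress responses (-1.20, adjusted p = 0.0806), and PDF1.2, a defensin of the jasmonate and ethylene response (-0.59, adjusted p = 0.683), did not pass.

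SAG29, ATSPS4F and CRR28 were among the 14 named genes chosen for the largest fitted increase from 4 to 28 h. SAG29, also called SWEET15, a sucrose transporter linked to senescence, had 384, 430.1 and 354 at 28 h, compared with 12.7, 88.9 and 139 at 4 h. The 28 h arrays were close to each other and the 4 h arrays widely spread (2.85, SE 0.75, adjusted p = 0.011). At 4 h SAG29 was above the dim level on 2 of 3 arrays. Its call was lost without SA 4 h replicate 1 or without SA 28 h replicate 2. ATSPS4F, a sucrose phosphate synthase, had 95.1, 222 and 257 at 28 h, compared with 17.5, 28.2 and 39.8 at 4 h (2.70, SE 0.37, adjusted p = 0.000111), 6.51-fold higher. CRR28, a pentatricopeptide repeat protein of plastid RNA editing, had 21.5, 33.6 and 36.5 at 28 h and was dim on all 4 h arrays, at least 1.69-fold higher.

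AT3G13672, named SINA2 among the synonyms of the RefSeq gene table, had 55.7, 27.0 and 23.2 at 28 h, compared with 0.290, 0.399 and 0.260 at 4 h. All 4 h arrays were dim, so the increase was at least 1.86-fold. AT1G10640 had 76.9, 155 and 91.8 at 28 h, compared with 11.7, 15.99 and 10.9 at 4 h, at least 5.87-fold higher. AT1G67750 had 91.5, 178 and 106 at 28 h, compared with 13.6, 11.3 and 22.8 at 4 h (2.98, SE 0.33, adjusted p = 1.56e-05). AT1G68600 had 238, 129 and 172 at 28 h, compared with 47.8, 16.4 and 22.03 at 4 h (2.75, SE 0.25, adjusted p = 4.01e-06). For AT1G67750 and AT1G68600 the lowest 28 h array was above 2-fold the highest 4 h array. At 4 h AT1G67750 was above the dim level on 1 of 3 arrays and AT1G68600 on 2.

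AT5G39520 had 372.5, 567 and 371.9 at 28 h, compared with 20.7, 56.4 and 147 at 4 h (2.94, SE 0.63). AT1G09500 had 78.1, 71.6 and 85.5 at 28 h, compared with 5.58, 1.61 and 47.9 at 4 h (3.37, SE 0.80). AT3G02480 had 488, 107 and 86.5 at 28 h, compared with 4.92, 35.9 and 16.4 at 4 h, and 1 of its 28 h arrays was far above the others (3.54, SE 1.08, adjusted p = 0.0247, and 0.11 without the block). Its call was also lost without SA 4 h replicate 1, SA 28 h replicate 1 or SA 28 h replicate 2. AT3G17640 changed by 2.77 (SE 0.44). At 4 h AT1G09500, AT3G02480 and AT3G17640 were above the dim level on only 1 of 3 arrays, so their fitted sizes rest in part on dim values. AT5G26790, AT3G28320 and AT3G15720 were dim on all 4 h arrays and at least 3.12-fold, 1.64-fold and 1.59-fold higher. Of the 14 genes, 6 were dim at 4 h on every array, and 13 passed without the block.

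Of the list genes of wall growth, cold and aliphatic glucosinolates, 2 of 3 in each list rose, where 13.2% of all probe sets rose. Without the block, where 5.39% rose, the counts were 2 of 3 for wall growth, 1 of 3 for cold and 1 of 3 for glucosinolates. EXPA8, an expansin that loosens cell walls, had 323, 548 and 345 at 28 h, compared with 91.4, 87.8 and 59.5 at 4 h (2.33, SE 0.27, adjusted p = 2.28e-05). TBL36, of a family that acetylates wall polysaccharides, had 63.9, 55.6 and 50.2 at 28 h, compared with 23.8, 42.2 and 23.61 at 4 h (0.97, SE 0.23), and EXPA4 did not pass (0.73, adjusted p = 0.11). COR47, a dehydrin, had 1752, 1144 and 1145 at 28 h, compared with 711, 461 and 669 at 4 h (1.13, SE 0.18, adjusted p = 0.000377). COR15A, a cryoprotective protein of chloroplasts, had 2726, 1539 and 1016 at 28 h, compared with 1328, 411 and 374.1 at 4 h. Its groups overlapped although every pair rose (1.46, SE 0.26), and its adjusted p of 0.000696 became 0.11 without the block. LTI30, another dehydrin, changed by -0.63 and did not pass (adjusted p = 0.118).

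UGT74C1, a glucosyltransferase of aliphatic glucosinolate synthesis, had 161, 227 and 227 at 28 h, compared with 62.2, 52.7 and 63.5 at 4 h (1.77, SE 0.28, adjusted p = 0.000264). BCAT4, the aminotransferase that starts methionine chain elongation, rose by 0.55 (SE 0.11, adjusted p = 0.0019, and 0.19 without the block). UGT74B1, a glucosyltransferase of the same pathway, did not pass (0.25, adjusted p = 0.51). GI, a clock gene, had 66.4, 353 and 455 at 28 h, compared with 67.3, 97.8 and 300.3 at 4 h (adjusted p = 0.166). The photosynthesis genes RCA (0.07) and LHCB4.1 (-0.01, and 0.05 after quantile normalization) did not pass, and neither had an unadjusted p under 0.05. Neither did any of 4 reference genes, 0 of them at an unadjusted p under 0.05: SAND (0.37), GAPC2 (0.02, and -0.01 after median centring), TIP41L (-0.19) and UBC21 (-0.22). Of 256 list members, 47 could be tested. The median change of all probe sets tested was 0.08.

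**Figure D2:**
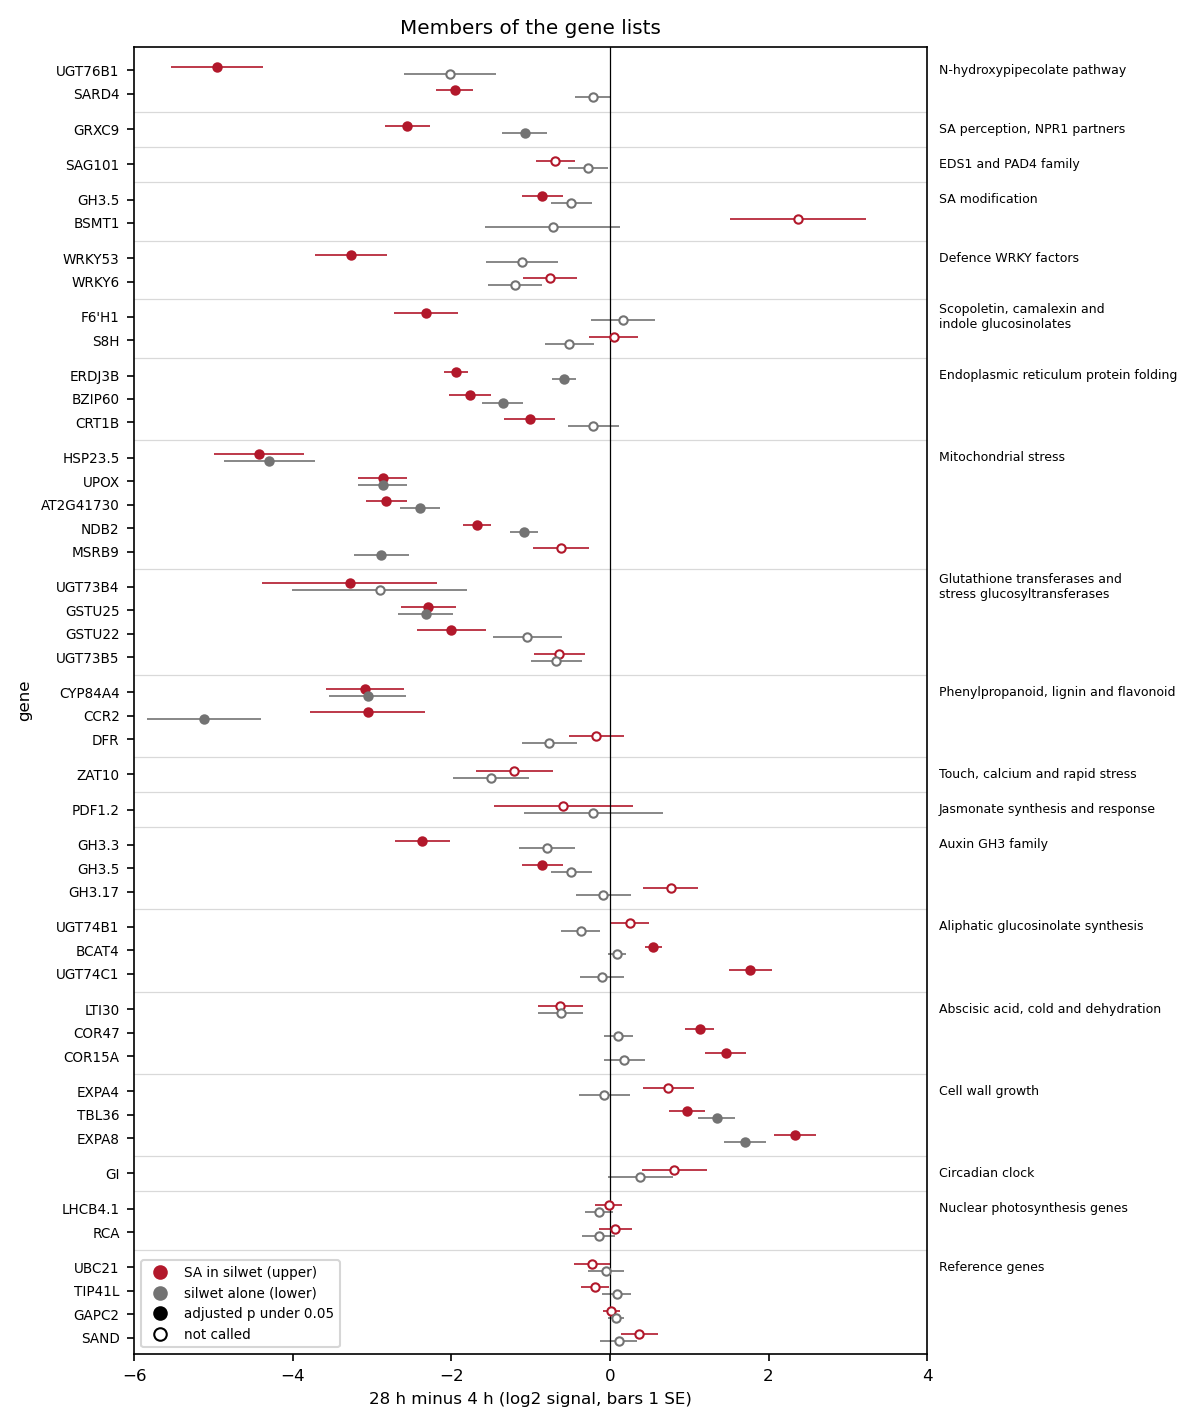
Change of list members between 4 and 28 h (log2 signal, 28 h minus 4 h, bars of 1 SE), SA plants in red above silwet plants in grey, with filled symbols where limma's adjusted p was under 0.05. UGT76B1, HSP23.5 and WRKY53 are among the lowest in SA plants and EXPA8 and UGT74C1 among the highest called, and for UPOX the red and grey symbols coincide.

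In silwet plants 654 probe sets (4.30%) were called between the same times, 129 higher (0.848%) and 525 lower (3.45%), and 92 without the block (0.605%), 5 higher (0.0329%) and 87 lower (0.572%). At least 2-fold were 416 (2.73%), 36 higher (0.237%) and 380 lower (2.50%), and the arrays of both times did not overlap for 11.8% of all probe sets. After median centring of the arrays the split was 188 higher and 389 lower. The SA and silwet comparisons share no array. Both moved the same way for 68.7% of all probe sets, and across probe sets, which are not independent replicates, their changes had r = 0.63 and rho = 0.55. Of the probe sets, 519 were called in both, 13.8% of those called in SA plants and 79.4% of those in silwet plants, and 518 had the same sign. Probe sets called lower in silwet plants had a median change of -1.30 in SA plants and -1.26 in silwet plants, and 515 of those 525 were below 0 in SA plants, where 44.0% of all probe sets were.

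Probe sets called higher in SA plants had a median change of 0.93 there and 0.31 in silwet plants, and those called lower -1.07 and -0.47. These sets were chosen by their SA values. All 14 genes with the largest SA decrease were also below 0 in silwet plants, and 5 of them were called lower there, 2 of those without the block. AT1G74870 had 0.599, 1.11 and 2.65 in silwet plants at 28 h, compared with 67.1, 98.6 and 242 at 4 h, at least 6.34-fold lower. HSP23.5 had 11.3, 16.4 and 18.8 at 28 h, compared with 194, 317 and 427 at 4 h, dim on every 28 h array and at least 16.1-fold lower. The calls of AT2G20720 (-3.69), AT1G49000 (-2.53) and AT2G23270, dim on all silwet 28 h arrays and at least 3.85-fold lower, were lost without the block (adjusted p = 0.242, 0.188 and 0.113). All 14 genes with the largest SA increase were above 0 in silwet plants, and AT3G13672 was the 1 called there (adjusted p = 0.0117, and 0.184 without the block).

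In the mitochondrial list all 5 genes fell in silwet plants, with and without the block, against 3.45% and 0.572% of all probe sets. UPOX changed by -2.87 in both treatments. EXPA8 (1.70 in silwet plants, adjusted p = 0.00158) and TBL36 (1.34, adjusted p = 0.00313) rose in both treatments, with and without the block. AT4G28780 (1.89 in SA plants and 1.55 in silwet plants), AT4G18970 (1.47 and 1.16) and AT5G52390 (1.62 and 1.40) were called in both with the block. Without it their silwet calls were lost (adjusted p = 0.142, 0.172 and 0.359), as was that of AT5G52390 in SA plants (0.057). CCR2 and CYP84A4 fell in silwet plants too, dim on all 28 h arrays there and at least 2.57-fold and 1.43-fold lower. AT1G76640, also called CML39, is a calmodulin-like protein. In silwet plants it had 6.99, 1.27 and 0.933 at 28 h, compared with 112, 78.6 and 119 at 4 h, at least 5.50-fold lower (adjusted p = 0.0202, and 0.119 without the block). In SA plants it had 9.35, 0.713 and 13.98 at 28 h, compared with 10.6, 1.31 and 69.2 at 4 h, dim on 5 of 6 arrays.

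**Figure D3:**
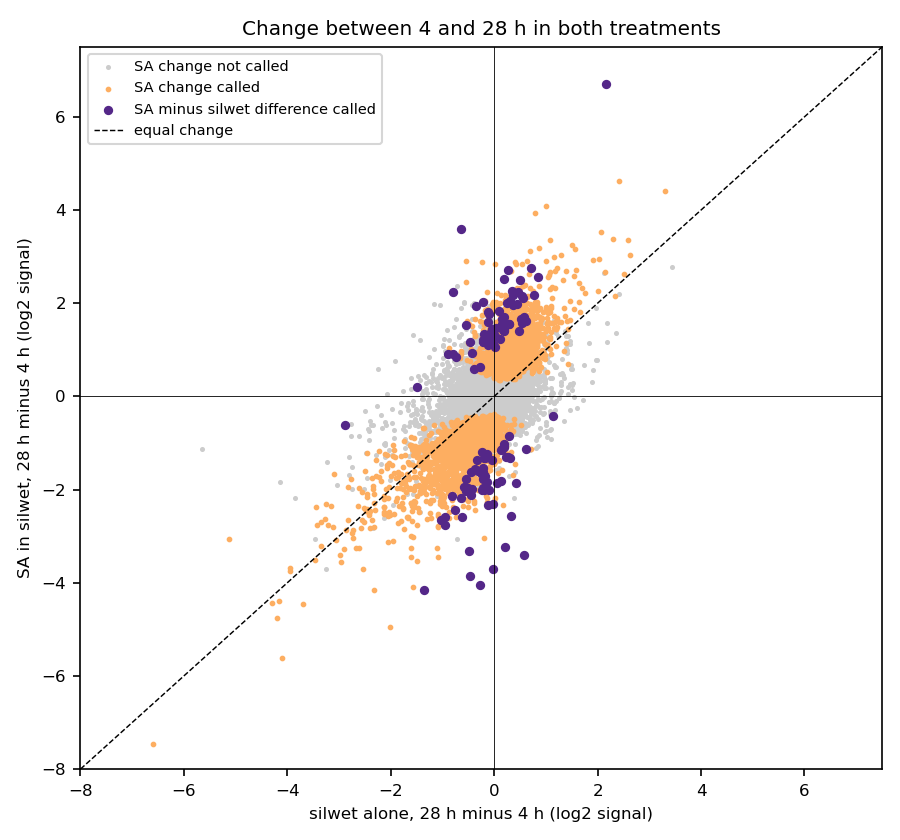
Change between 4 and 28 h of each of the 15212 probe sets (log2 signal, 28 h minus 4 h), SA plants on the vertical axis and silwet plants on the horizontal axis, with the line of equal change. Purple marks the 119 probe sets where the difference between the treatments was called, with a median size of change of 0.28 on the silwet axis. The purple points were chosen by the difference between the values of both axes. AT3G13672, dim at 4 h in both treatments, is the purple point at the top.

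The difference between the 2 changes with time was itself tested, and 119 probe sets passed (0.782%), 61 with a higher (0.401%) and 58 with a lower (0.381%) change in SA plants. After median centring 34 were higher and 63 lower. At least 2-fold were 115 (0.756%), 58 higher (0.381%) and 57 lower (0.375%). Without the block 4 passed (0.0263%), 1 higher (0.00657%) and 3 lower (0.0197%), of which AT3G44190 (-1.54) and AT4G02220 (-1.82) have a gene name and are named here after their values were seen. None of the 15 genes of the rule and the lists described next was among them, with adjusted p of 0.0723 to 0.662 without the block. Of the 10 genes of the rule, 9 lost the call in at least 1 of 12 fits without 1 array, and the other, AT3G13672, was dim on all 4 h arrays of both treatments. AT5G03350 lost it without SA 28 h replicate 1. Of the 119, 116 were also called in SA plants and 14 in silwet plants. Their median size of change was 1.70 in SA plants and 0.28 in silwet plants. These 119 were chosen by the difference between these same changes.

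AT3G28510 had 13.8, 29.9 and 20.4 in SA plants at 28 h and 141, 191 and 266 at 4 h, against 11.2, 13.3 and 45.3 in silwet plants at 28 h and 14.2, 11.99 and 25.8 at 4 h. The SA arrays at 4 h stood alone above the others, a difference of -3.45 (SE 0.64, adjusted p = 0.027). AT5G03350 followed the same order, with 333, 202 and 138 in silwet plants at 28 h and 388, 214 and 294 at 4 h (difference -3.40, SE 0.53, adjusted p = 0.011). AT5G44570 had 112, 213 and 192 in SA plants at 28 h and 893, 913 and 692 at 4 h, against 99.7, 154 and 223 in silwet plants at 28 h and 93.9, 170.5 and 229 at 4 h (difference -2.29, adjusted p = 0.027). AT1G15790 (-2.29) and AT4G32870 (-2.20) had the same pattern.

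Of the list members, the difference was called for SARD4 (-1.75, SE 0.33, adjusted p = 0.027) and ERDJ3B (-1.37, SE 0.21, adjusted p = 0.011) on the lower side. SARD4 had 205, 124 and 96.9 in silwet plants at 28 h and 132, 167 and 173 at 4 h, all below its SA arrays of 4 h. ERDJ3B also had a call in silwet plants (-0.58, adjusted p = 0.041, and 0.236 without the block). So did BZIP60 (-1.35, adjusted p = 0.00698, and 0.118 without the block) and GRXC9 (-1.08, adjusted p = 0.041, and 0.33 without the block). CRT1B was not called there (-0.21, adjusted p = 0.81). The BZIP60 difference of -0.41 did not pass (adjusted p = 0.68). UGT76B1 had 38.2, 11.8 and 201 in silwet plants at 28 h and 91.8, 205 and 322.2 at 4 h. The UGT76B1 difference of -2.93 did not pass (SE 0.82, adjusted p = 0.12), nor did those of WRKY53 (-2.15, adjusted p = 0.15), GRXC9 (-1.48, adjusted p = 0.11) and F6'H1 (-2.49, adjusted p = 0.057).

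On the higher side AT3G13672 had 80.7, 16.3 and 17.9 in silwet plants at 28 h, with 1 of 3 arrays above the dim level, and 9.64, 6.05 and 4.57 at 4 h. It was dim on all 4 h arrays of both treatments, so its called difference (adjusted p = 0.0054) has no measured size. AT1G52000 had 117, 45.7 and 121 in SA plants at 28 h and 19.4, 7.07 and 44.3 at 4 h, against 61.2, 41.5 and 93.5 in silwet plants at 28 h and 120.5, 81.8 and 126 at 4 h. It rose in SA plants (2.25, SE 0.37) and had a value below 0 in silwet plants (-0.80, adjusted p = 0.29), with a difference of 3.04 (SE 0.53). AT5G62360 had 1219, 983 and 1086 in SA plants at 28 h and 279, 128 and 197 at 4 h, against 1019, 859 and 1147 in silwet plants at 28 h and 1240.5, 656 and 831 at 4 h. The SA arrays at 4 h lay below all the others (difference 2.32, SE 0.40, adjusted p = 0.017).

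ATSPS4F had 40.3, 299 and 291 in silwet plants at 28 h and 65.7, 172 and 176 at 4 h, a difference of 2.43 (SE 0.53, adjusted p = 0.047). AT1G60590 (2.23) and AT1G68600 (2.04) were also called, as were UGT74C1 (1.87, SE 0.39, adjusted p = 0.039) and MSRB9 (2.27, SE 0.50, adjusted p = 0.048). For UGT74C1 the silwet arrays of both times, 127, 259 and 266 at 28 h and 285, 187 and 203 at 4 h, were all above the SA arrays of 4 h. MSRB9 differed in another way, with 122, 46.0 and 60.2 in silwet plants at 28 h and 527, 393 and 656 at 4 h (-2.88). Its SA arrays lay lower at 4 h than the silwet ones.

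**Figure D4:**
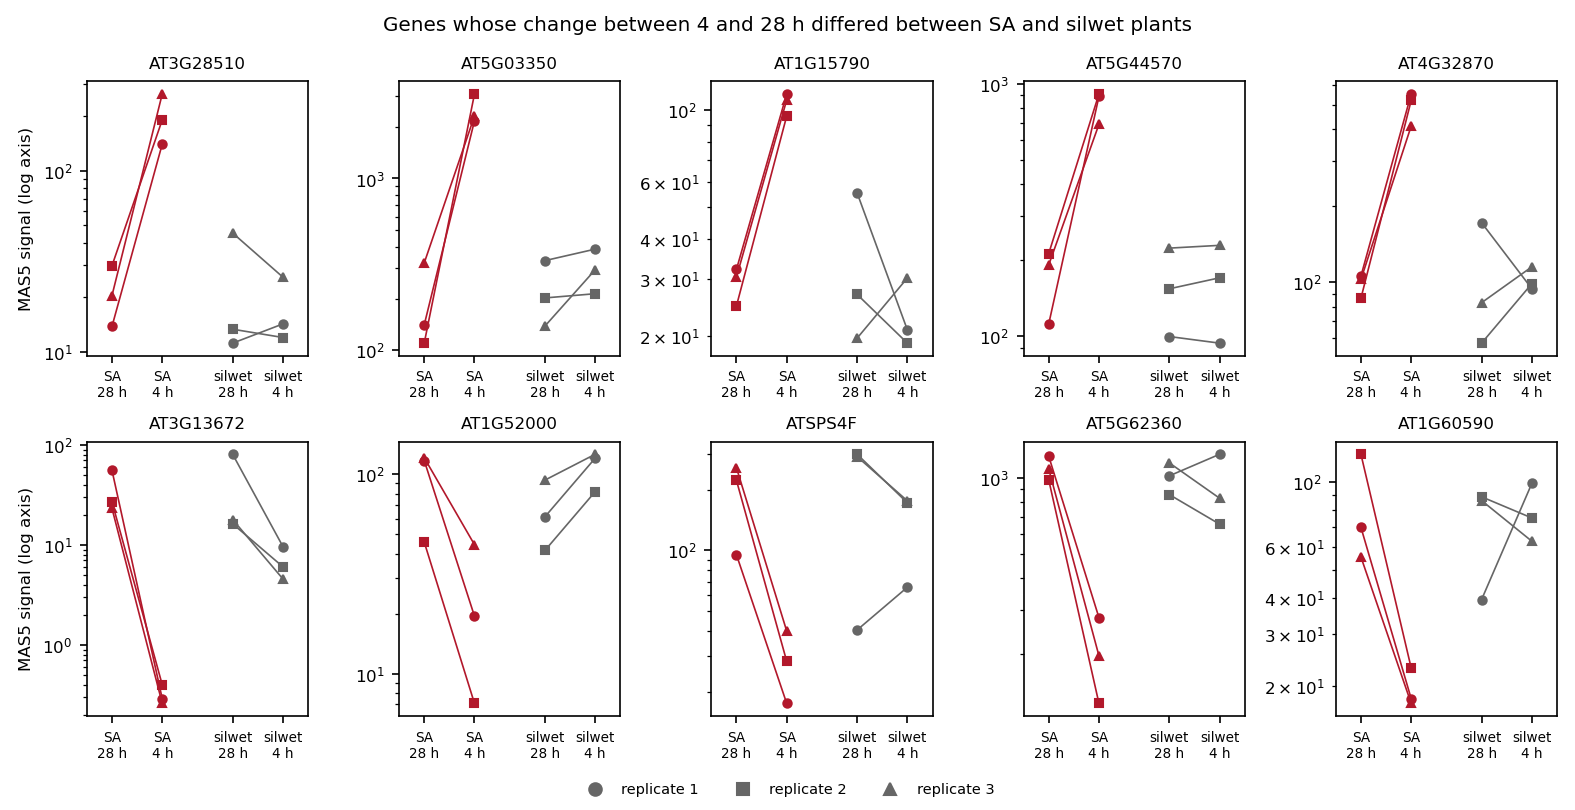
MAS5 signal on a log axis of 10 genes whose change between 4 and 28 h differed between treatments, SA plants in red and silwet plants in grey, 28 h left of 4 h, with lines joining arrays of the same replicate number. In the upper row, where the SA change was lower, the SA arrays of 4 h stand above the rest. In the lower row they stand below the silwet arrays except for AT1G52000, where they overlap. The choice of these genes required that the SA arrays of 28 h and 4 h not overlap.

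Levels at 52 h after SA are given for a few genes beside those at 28 h, without a test. UGT76B1 had 1598, 2378 and 2116 at 4 h, 48.1, 85.1 and 65.9 at 28 h and 10.1, 12.9 and 17.3 at 52 h. WRKY53 had 62.2, 19.8 and 64.5 at 52 h, ERDJ3B 373.9, 259.8 and 387, SARD4 114, 62.3 and 94.6, and EXPA8 305, 434 and 400.1. SAG29 had 177, 38.6 and 177 at 52 h, below all of its 28 h arrays.

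Gene families collected by symbol were set against the 13.2% higher and 11.5% lower of all probe sets. A member listed under another symbol or a locus number is not counted in its family. The families too were chosen with earlier results of these data known, so these counts are a description. Of 10 expansins, 6 rose and 0 fell, and 3 rose without the block. The 4 others, EXPA4, EXPA9, EXPA16 and EXLB1, did not pass, and EXPA16 turned below 0 under quantile normalization. EXPB3 had 63.0, 165 and 88.0 at 28 h, compared with 54.2, 42.3 and 34.4 at 4 h (1.18, SE 0.28), and EXPA15 92.0, 105 and 91.3 at 28 h, compared with 52.0, 62.0 and 50.1 at 4 h (0.82, SE 0.22). The median change of expansins was 0.84 in SA plants and 0.54 in silwet plants. Of 7 tubulins, the subunits of microtubules that guide wall deposition, 4 rose and 1 fell, and 2 rose without the block. TUB1 had 83.9, 99.97 and 111 at 28 h, compared with 54.1, 46.3 and 42.7 at 4 h (1.04, SE 0.18, adjusted p = 0.00064), and TUA1 fell (-0.70, adjusted p = 0.044, and 0.13 without the block).

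Serine carboxypeptidase-like proteins, some of which act as acyltransferases, had 8 of 17 higher and 3 lower, and 6 and 2 without the block. SCPL34 had 76.9, 142 and 166 at 28 h, compared with 27.3, 37.2 and 30.3 at 4 h (1.96, SE 0.22, adjusted p = 2.3e-05), and its difference from silwet plants was called (1.59, adjusted p = 0.032, and 0.522 without the block). Of 6 calmodulin-like proteins with a CML symbol, calcium sensors that respond fast to touch and stress, 4 fell, 2 of them without the block. In silwet plants 3 of the 6 fell, 0 of them without the block, where 3.45% of all probe sets fell with it. AT1G76640, or CML39, is not among the 6. By limma it was not called in SA plants (adjusted p = 0.582) and was called lower in silwet plants with the block (adjusted p = 0.0202). CML42 had 95.7, 69.9 and 86.7 at 28 h, compared with 216, 207 and 154 at 4 h (-1.19, SE 0.23). CML37 (-1.48), CML38 (-1.60) and CML43, which was dim on all 28 h arrays and at least 2.87-fold lower, were the others.

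UDP-dependent glycosyltransferases, the family of UGT76B1, were split, with 2 of 30 higher and 9 lower, 0 and 2 without the block, and a median of 0.00. UGT73D1 (-2.18), UGT71B6 (-1.54) and UGT87A2 (-1.11) fell with the block and had adjusted p of 0.12, 0.12 and 0.14 without it. The subtilases SBT3.3 (-1.30), known for a role in immune priming, and SBT3.5 (-1.26) were called lower in both treatments, with adjusted p without the block of 0.23 and 0.40 in SA plants and 0.71 and 0.84 in silwet plants, and SBT1.3 rose (0.90). The autophagy genes ATG8B (-0.84) and ATG8E (-0.88) were the 2 of 8 that fell, with 0 of 8 without the block. Of 17 secretory and vacuolar sorting proteins 4 fell and 1 rose, and without the block 1 fell and 0 rose. VPS60.1 had 94.8, 69.6 and 66.5 at 28 h, compared with 181, 293 and 187 at 4 h (-1.50, SE 0.31).

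Of 65 called family members outside the rule and the lists, 42 lost the call without the block. P450 enzymes had 3 of 13 higher and 3 lower (2 and 2 without the block), tetraspanins 3 of 7 and 1 (1 and 0), tau glutathione transferases 1 of 7 and 3 (1 and 2) and trichome birefringence-like proteins 2 of 13 and 1 (1 and 1). SWEET transporters with that symbol had 2 of 9 higher and 0 lower, and aldehyde dehydrogenases 2 of 8 and 1. Beta-glucosidases had 1 of 13 and 1, and xyloglucan endotransglucosylases 1 of 5 and 0. All of these had 0 and 0 without the block. SAG29, also called SWEET15, is not among the 9. It was called higher by limma with and without the block (adjusted p = 0.011 and 0.028). Of 69 genes of the plastid genome limma called 0, with 7 at an unadjusted p under 0.05, and their changes lay between -1.03 and 0.58. Ubiquitin-conjugating enzymes (0 of 10, 1 at an unadjusted p under 0.05), RNA polymerase II subunits (0 of 6, 0) and Aux/IAA proteins (0 of 2, 1) had none called.

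**Figure D5:**
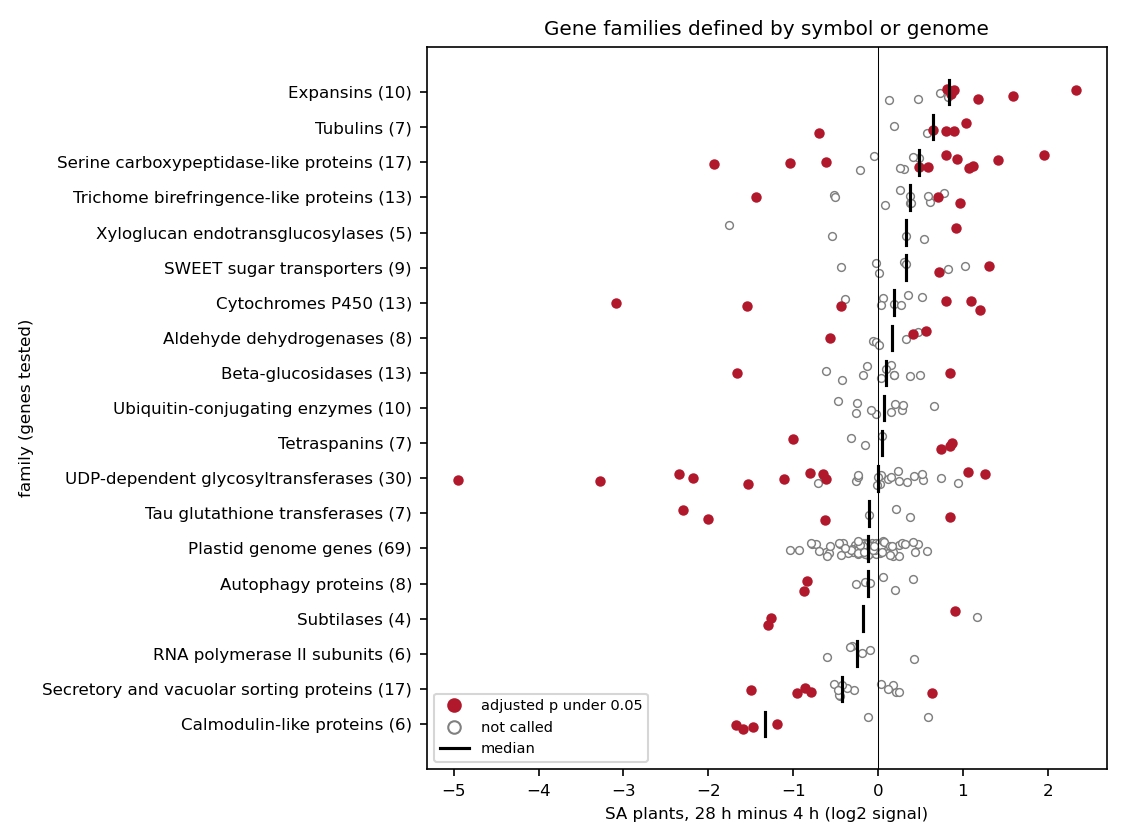
Change in SA plants between 4 and 28 h (log2 signal, 28 h minus 4 h) of each tested gene of 19 families with at least 4 tested members, ordered by the median (black bar), with red for adjusted p under 0.05. Expansins have the highest median (0.84) and calmodulin-like proteins the lowest (-1.33), and no plastid genome gene is red.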

How the data were processed

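Per the submitters' processing notes, the authors used MAS5 to make the deposited table of linear intensity values for 22810 probe sets on 18 ATH1 arrays. Its version is not given in the sources used here. With 2% of values trimmed at each end, array means were 100.009 to 100.011, so arrays had been scaled to 1 level, and no 2 arrays were identical. MAS5 subtracts a background, which leaves dim probe sets noisy on a log scale.

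The intensities were put on the log2 scale as they stood. A probe set was tested if 3 or more arrays had it over the array-wide 40th percentile (15212 of 22746, after removal of 64 controls). The model, made with limma 3.58.1 (R 4.3.3), held 6 group means over all 18 arrays plus the titles' replicate number as a fixed block. It used eBayes with an intensity trend, and Benjamini-Hochberg over the 15212 set calls at adjusted p under 0.05. The block comes from the rule that defines the comparison. Same-numbered SA arrays deviated together from their group means for replicates 1 and 3 (r = 0.63 and 0.64 across probe sets) but hardly for replicate 2 (0.09). In silwet plants r was 0.63, 0.39 and 0.54. Differently numbered SA arrays had r of -0.63 to 0.34, the highest for 28 h replicate 2 with 4 h replicate 3. In silwet plants these lay between -0.63 and 0.28. The labels do not say what a number marks, so the fit without the block is given beside the calls in the text that it changes. P-values of the main fit measure the spread of these biological replicates left after the replicate-number differences are taken out, pooled over the 6 groups. In the fit without the block the spread includes those differences. Where a gene was dim on all arrays of a group, those values were raised to the dim level of their array and the fold is a lower bound.

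In the platform annotation 13513 probe sets have 1 gene. Another 503, which have several, stayed unnamed, as did 8730 that it does not list. Symbols were updated through the TAIR10.1 RefSeq table, which matched 13436. Of 256 members of 29 lists 50 were named and 47 tested. Lists of SA synthesis, SA effectors, cell cycle, heat shock, sugar starvation, flower and seed, and vascular genes had no tested member. Genes named are the 14 higher and 14 lower called probe sets of the SA comparison with the largest change. They have 1 gene name, no overlap of arrays and all 3 arrays of the higher group above the dim level. Also named are 5 and 5 by the same rule for silwet, 5 and 5 for the difference, and any list member. For the difference, the SA arrays of 28 h and 4 h were not to overlap, with nothing asked of overlap in silwet plants. All 3 arrays were to be above the dim level in SA 28 h or silwet 4 h for a higher difference. For a lower one this was asked of SA 4 h or silwet 28 h. Members of the 20 families were named after their values were seen. The comparison, lists, families and rule were chosen with earlier results of these data known. Alternatives were quantile normalization, median centring, an offset of 5.53, a filter at the 60th percentile or none, no trend, array weights, only the arrays compared, the 3' over 5' ratio as a covariate, a 2-fold requirement and leaving out arrays or replicate numbers. The fit was tested on simulated data. Figures used matplotlib 3.10.9 in Python 3.11.15. No sequences or coordinates were used here.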

Additional observations from a re-analysis of the deposited data

Results flagged for a closer look

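These genes had a change between 4 and 28 h that differed between SA and silwet plants by limma's test of the difference itself (adjusted p under 0.05, log2 change in SA plants minus that in silwet plants). With a smaller value in SA plants were AT3G28510 (-3.45), AT5G03350 (-3.40), AT1G15790 (-2.29), AT5G44570 (-2.29), AT4G32870 (-2.20), SARD4 (-1.75) and ERDJ3B (-1.37). With a larger value were AT3G13672 (4.56, fitted on values dim on all 4 h arrays of both treatments and so no measured size), AT1G52000 (3.04), ATSPS4F (2.43), AT5G62360 (2.32), MSRB9 (2.27), AT1G60590 (2.23), AT1G68600 (2.04), UGT74C1 (1.87) and SCPL34 (1.59). In MSRB9 the larger change was that of silwet plants. Without the block none of the 15 genes of the rule and the lists passed (limma's adjusted p of 0.0723 to 0.662), nor did SCPL34. Of the 10 genes of the rule, 9 lost the call in at least 1 of 12 fits without 1 array.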

How the results depend on the processing

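The count of 3756 probe sets between 28 and 4 h in SA plants was 1769 with no replicate block, 1839 with at least 2-fold required, 5772 with array weights, and 1166 with SA 4 h replicate 2 left out and no replicate block, a fit chosen after seeing the data. Leaving out 1 SA array gave 2478 (SA 28 h replicate 2) to 3726, and leaving out a replicate number 1276 (number 2), 1571 (number 3) or 4622. The 654 of silwet plants became 92 with no replicate block, 416 at 2-fold, 242 with only their own arrays and 1817 with array weights, 270 to 597 without 1 array (295 and 270 without silwet 4 h replicate 2 or 3, 373 and 300 without silwet 28 h replicate 2 or 3), and 79 to 1351 without a replicate number. The 119 of the difference became 4 with no replicate block, 77 with only the arrays compared, 54 with no trend, 450 with array weights and 66 with the 3' over 5' covariate, 12 (SA 28 h replicate 1) to 118 without 1 array (62 or fewer for 9 of the 12 arrays), and 0, 6 or 20 without replicate number 2, 3 or 1. At 0, limma had 947 at an unadjusted p under 0.05. Median centring moved the median difference over all probe sets from 0.09 to -0.02, which bears on the split of the 119. The cause of these moves was not tested, except that fewer arrays are fitted where some are left out.

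Of 60 called genes of the rule and the lists, 39 stayed called in every alternative that tested them. Among these 39, AT3G28320, CRR28, PUB22, GSTU22 and CYP84A4 did not pass the filter at the 60th percentile and were not tested there. Of the 60, 9 lost the call with no replicate block and 6 in some fit without 1 array (AT3G02480, SAG29, AT3G54520, UGT73B4, GH3.5 and CRT1B). Of 65 further called family members 4 stayed called throughout and 42 lost the call with no replicate block. No called gene turned direction in the SA comparison. In silwet plants AT2G23270, AT4G28780, AT5G52390, AT4G18970 and AT1G76640 lost the call in some fit without 1 silwet array. Directions turned for genes that were not called: with quantile normalization S8H (-0.070), LHCB4.1 (0.049) and EXPA16 (-0.030), with median centring GAPC2 (-0.010), with array weights LHCB4.1 (0.0038) and EXPA16 (-0.0094), with the 3' over 5' covariate GAPC2 (-0.015), EXPA16 (-0.23) and CML30 (0.060), and with SA 4 h replicate 2 left out and no replicate block S8H (-0.032), LHCB4.1 (0.14), PYK10 (-0.14) and EXPA16 (-0.43). Without an array or a replicate number, changes ranged from -2.17 to 0.49 for AT1G76640, -0.064 to 0.15 for S8H, -1.51 to 0.40 for PDF1.2, -0.058 to 0.036 for LHCB4.1, -0.042 to 0.21 for RCA, -0.021 to 0.049 for GAPC2, -0.41 to 0.0060 for UBC21, -0.21 to 0.74 for PYK10, -0.48 to 0.62 for EXPA16 and -0.41 to 0.16 for CML30.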
